A study of Mus musculus with 12 samples.

Results

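The libraries described here are 4 of 12 chromatin immunoprecipitation sequencing (ChIP-seq) libraries from mouse liver: the 2 whose titles name H3K4 and the 2 whose titles name H3K36, chosen by title. They were compared over the 532 genomic stretches that all 12 files cover. Livers came from C57/BL6 males of 12 to 14 weeks, held in a cycle of 12 h light and 12 h dark and fed in the dark phase only for the last 7 days. The labels give 5 mice at 2 h Zeitgeber time, which starts when lights go on, and 5 at 26 h as the biological replicate, and do not tie a replicate number to a time or say whether mice were pooled. All 6 groups of 2 libraries share strain, sex, age, feeding and tissue; the other groups are input chromatin, RPB2, which belongs to RNA polymerase II (Pol II), and RPC1 and RPC4, which belong to RNA polymerase III (Pol III). The labels give no genotype or agent that separates the groups; they differ in what was precipitated, and input was not precipitated.

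The labels of the 4 histone libraries contradict themselves. Both libraries titled H3K4 have an antibody field that names H3K36me3, and both titled H3K36 have an antibody field that names H3K4me3. The track headers inside the files follow the titles. The libraries are therefore called H3K4-titled and H3K36-titled, and no value below decides which antibody was used.

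H3K4me3, trimethylation of lysine 4 of histone H3, is best known as a mark of nucleosomes beside active promoters, mostly those with many CpG dinucleotides. H3K36me3 is laid down behind elongating Pol II and covers the bodies of transcribed protein-coding genes. Pol III makes tRNA, 5S rRNA, U6, 7SK and other short RNAs. A tRNA gene carries its promoter inside the transcribed part, as an A box and a B box that bind TFIIIC, which brings TFIIIB and then Pol III. Liver is a mixture of cell types, and in whole tissue a mark on few cells and a weak mark on all cells cannot be told apart; the same holds for marks on different cells or alleles at a stretch.

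The sequences below show a tRNA gene whose letters are the same at a stretch high in the H3K4-titled libraries and at a stretch high in the H3K36-titled libraries. Both come from the mm9 reference, and both are predicted tRNA-Gly genes with anticodon GCC. The first lies between genes, at chr1:172975116-172975186 on the plus strand. The second lies in an intron of Trim2, a ubiquitin ligase gene, at chr3:84032933-84033003 on the minus strand. Capitals mark the 9 bases at the place of the B box.

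tRNA-Gly (GCC), chromosome 1: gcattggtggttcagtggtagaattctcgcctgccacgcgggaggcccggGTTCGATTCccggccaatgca

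tRNA-Gly (GCC), Trim2: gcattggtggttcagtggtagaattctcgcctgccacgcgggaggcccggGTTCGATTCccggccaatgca

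The 100 bases before these genes (chr1:172975016-172975115, plus strand, and chr3:84033004-84033103, minus strand) are not the same, and are shown with CG dinucleotides in capitals. The chromosome 1 copy has 3 of them and the Trim2 copy has 2.

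Before tRNA-Gly (GCC), chromosome 1: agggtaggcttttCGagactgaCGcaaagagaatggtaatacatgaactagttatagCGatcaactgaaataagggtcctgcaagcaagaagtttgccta

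Before tRNA-Gly (GCC), Trim2: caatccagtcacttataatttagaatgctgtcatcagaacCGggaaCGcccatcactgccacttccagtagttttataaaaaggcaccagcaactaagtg

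A second pair shows tRNA-Asp (GTC) genes that differ. The gene at chr11:68854486-68854557 (plus strand, between genes) was at a stretch high in the H3K4-titled libraries. The gene at chr2:113929103-113929174 (plus strand) was at a stretch high in the H3K36-titled libraries, in an intron of Aqr, which encodes an intron-binding splicing helicase. Of 72 bases 66 are identical. Counted from 1 at the 5′ end, with the chromosome 11 base first, the substitutions are C29T, G41A, G45C, G49A, C60T and C63T.

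tRNA-Asp (GTC), chromosome 11: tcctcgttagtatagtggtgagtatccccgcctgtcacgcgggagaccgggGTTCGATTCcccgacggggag

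tRNA-Asp (GTC), Aqr: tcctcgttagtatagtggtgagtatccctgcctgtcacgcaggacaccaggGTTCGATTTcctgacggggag

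The values are mean coverage per base over a stretch, as deposited and not scaled for depth, in which a read lying alone adds 1 over 76 bp. Summed coverage divided by 76 bp, here called read equivalents, came to 17033 and 26665 over all stretches in the H3K4-titled libraries, but only 1754 and 1273 in the H3K36-titled libraries. Input held 3563 and 3365, and the 4 Pol III libraries held between 82276 and 160705. The median stretch had 5.45 and 8.81 read equivalents in the H3K4-titled libraries and 1.27 and 1.00 in the H3K36-titled libraries. No coverage at all was listed at 102 and 70 stretches for the H3K4 titles and at 127 and 130 for the H3K36 titles, where 0 allows up to 3 reads by counting error alone. The depth of the whole libraries outside these stretches is unknown, and markers of liver are not covered by the files. Stretches were identified as 380 with predicted tRNA genes, 50 with 5S rRNA genes, 14 with other short RNA genes, and 88 matched to none.

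A stretch was called high for a title where its coverage reached the 75th percentile of that library, and at least 3 read equivalents, in both libraries of the title. The percentile stood at a coverage of 4.74 and 7.19 in the H3K4-titled libraries and at 0.449 and 0.408 in the H3K36-titled libraries. For the latter it lay at 2.20 and 2.00 read equivalents, so there the minimum of 3 decided membership. In H3K4-titled replicate 1 the stretch just inside had 4.747 and the one just outside 4.743. Of 133 stretches in the top 25% of H3K4-titled replicate 1, 122 (91.7%) were also in the top 25% of replicate 2. For the H3K36 titles this held for 71 of 133 (53.4%), and for the input libraries, ranked the same way, for 61 of 133 (45.9%). The ranks over 532 stretches correlated with a Spearman rho of 0.93 between the H3K4-titled libraries, 0.38 between the H3K36-titled libraries and 0.41 between the input libraries. The H3K36 side of every class below thus rests on few reads.

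High in the H3K4-titled libraries were 122 stretches (22.9%), and high in the H3K36-titled libraries were 46 (8.65%). The classes were 118 stretches high for H3K4 only (H3K4-only), 42 high for H3K36 only (H3K36-only), 4 high for both (double) and 368 high for neither. Of the H3K4-high stretches 3.28% were H3K36-high, against 10.2% of the other stretches. Of the H3K36-high stretches 8.70% were H3K4-high, against 24.3% of the others. Both comparisons rest on the same class counts, so they do not count separately. In each, the share was lower among the stretches high for the other title. Still, 4 stretches were high for both, so by this rule the titles did not exclude each other fully. None of these 4 took a larger share of both H3K36-titled libraries than of both input libraries. Stretches are not independent replicates, and no test is given. Leaving out H3K36-titled replicate 2 and keeping replicate 1 alone gave 90 H3K36-only and 19 double stretches, with 15.6% of the H3K4-high stretches H3K36-high against 22.0% of the others. Leaving out H3K36-titled replicate 1 gave 63 and 10.

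**Figure D1:**
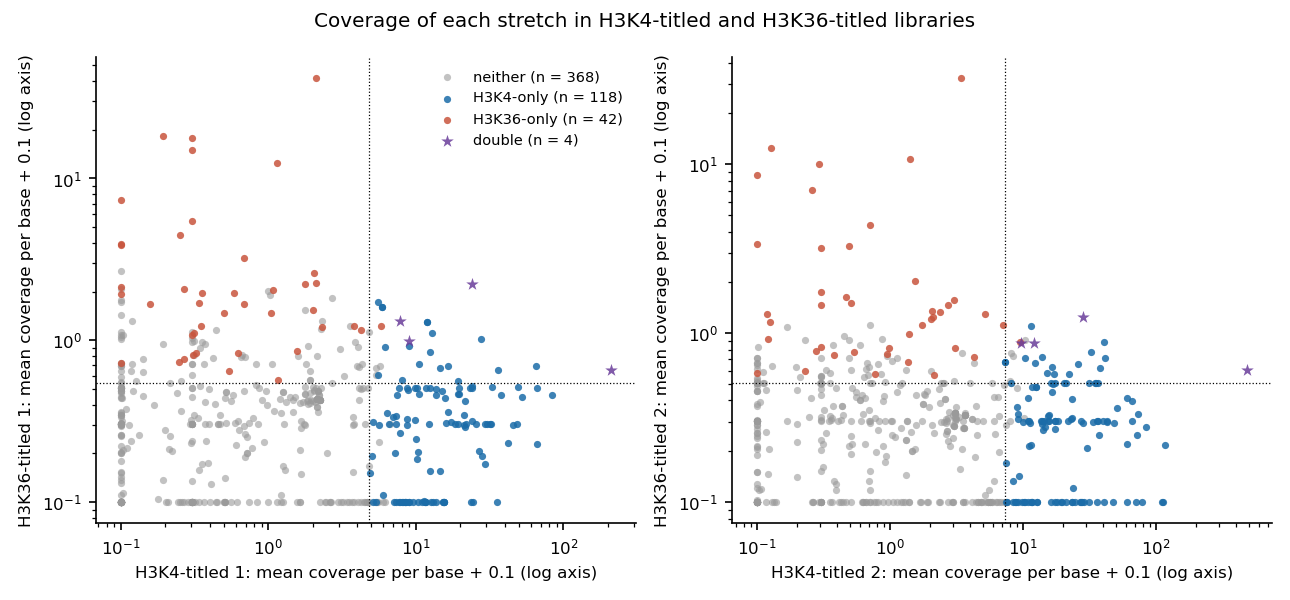
Mean coverage per base plus 0.1 of each of 532 stretches (points) in the H3K4-titled library (x axis, log scale) and the H3K36-titled library (y axis, log scale) with the same replicate number, coloured by class. Dotted lines mark each library's 75th percentile; points at the left or lower edge had no coverage, and the 4 double stretches (stars) sit in the upper right field of both panels.

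Across the whole range, the marks did not run against each other. The 4 pairs of an H3K4-titled with an H3K36-titled library had Spearman rho of 0.01, 0.01, -0.09 and -0.06 over 532 stretches, values that share low depth and, for some neighbours, the same reads. Split into 4 equal groups by H3K4-titled coverage, from lowest to highest, 10, 18, 13 and 5 of 133 stretches each were H3K36-high. The fewest were thus at the top of the H3K4 range and the most in the group second from the bottom. Median H3K36-titled coverage in the lowest group (0.204 and 0.204) was that of the highest group (0.204 and 0.204), which is the coverage of 1 read in a stretch of 373 bp.

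The classes set by the histone libraries differed in Pol III, which the rule did not use. Median coverage of H3K4-only stretches was 87.6 and 64.9 in the RPC1 libraries and 116 and 122 in the RPC4 libraries. That of H3K36-only stretches was 5.18 and 4.19 for RPC1 and 6.57 and 6.77 for RPC4. In every Pol III library the H3K4-only median was far above the H3K36-only median, by 4.09 ± 0.10 on the log2 scale (SD, n = 4 libraries), or 17-fold. In the input libraries the same difference was negative, -0.55 and -0.60, with medians of 1.06 and 0.94 at H3K4-only and 1.55 and 1.43 at H3K36-only stretches. The exact permutation test over libraries, Pol III against input, gave a two-sided p = 0.0667, which is the smallest that 15 relabellings of 4 and 2 libraries allow, so 0.05 could not be reached.

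In Pol III coverage as deposited, H3K36-only stretches lay close to the neither class. The neither class had medians of 4.73, 4.17, 8.28 and 7.96 in RPC1 replicates 1 and 2 and RPC4 replicates 1 and 2. H3K36-only stretches were thus higher by 0.13 and 0.01 on the log2 scale in the RPC1 libraries and lower in the RPC4 libraries, at -0.33 and -0.23, a mean of -0.11 ± 0.21 (SD, n = 4). This difference turned with the rule: it was 0.54 with the 67th percentile, 0.18 over merged regions and -2.06 where a class had to exceed both input libraries' shares. Input was higher at H3K36-only than at neither stretches, by 0.64 and 0.49, which is above the difference in each Pol III library. Pol III minus input was -0.67. The exact permutation test over libraries gave a two-sided p = 0.0667 here too. Every pair of classes compared gave this smallest possible p, so the test does not rank the pairs. How far input sets the Pol III values was not tested.

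The 4 double stretches had Pol III medians of 38.6, 31.7, 63.3 and 49.3, between the other classes, with the highest input medians of the 4 classes, 3.48 and 3.68. Stretches below the median of all 4 histone libraries, called strictly empty (85 of the 368), had the lowest Pol III medians, 1.43, 1.04, 2.05 and 2.18. The H3K4-only median exceeded the strictly empty median by 5.88 ± 0.08 on the log2 scale (SD, n = 4), against 0.47 in input.

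**Figure D2:**
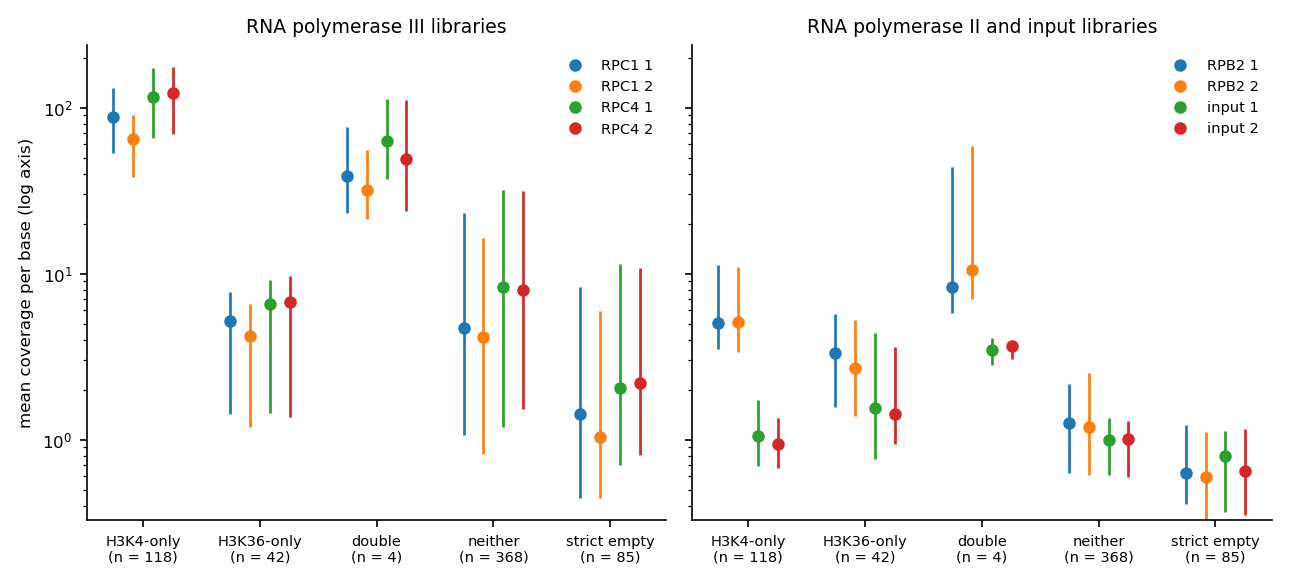
Mean coverage per base (log axis) of the stretches in each class, for the 4 Pol III libraries (left) and the Pol II and input libraries (right); points are medians over stretches and lines run from the 25th to the 75th percentile. H3K4-only medians lie between 64.9 and 122 in the Pol III libraries, while H3K36-only and neither medians lie between 4.17 and 8.28.

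The classes took unequal parts of the strongly occupied stretches. A mean Pol III coverage above 50 over the 4 libraries was found at 160 stretches (30.1% of all). Of these 91 were H3K4-only, which is 77.1% of that class, 2 were double, 67 were neither (18.2% of that class) and 0 were H3K36-only. The last count depends on where the line is drawn: the highest H3K36-only mean was 49.2, at the tRNA-Glu (CTC) stretch in Fcgr3, where RPC1 had 45.8 and 35.8 and RPC4 had 64.2 and 51.1, and 9 of 42 (21.4%) were above 10, against 285 of 532 (53.6%) over all. The neither class thus holds 41.9% of the strongly occupied stretches. The rule admits only 122 stretches as H3K4-high, fewer than these 160, so some had to fall outside it whatever their H3K4-titled level. Of the 67 in the neither class, 8 were below the median of all 4 histone libraries (strictly empty). At the other end, 145 stretches had a mean under 2, of which 0 were H3K4-only, 13 were H3K36-only (31.0% of the class), 132 were neither (35.9%), and among the latter 46 were strictly empty.

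Among the 380 stretches with predicted tRNA genes the contrast was wider. Pol III medians were 100, 69.2, 124 and 128 at 99 H3K4-only stretches and 1.41, 1.396, 1.74 and 1.60 at 20 H3K36-only stretches. The 258 tRNA stretches of the neither class had 2.39, 1.71, 3.39 and 3.48. Of the H3K4-only tRNA stretches 97 of 99 (98.0%) had a mean Pol III coverage above 10, of the H3K36-only ones 6 of 20 (30.0%) and of the neither ones 95 of 258 (36.8%).

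Where the level stands against input depended on the scaling. With coverage as deposited, Pol III over input medians on the log2 scale were 6.57 for H3K4-only, 1.91 for H3K36-only, 3.63 for double, 2.58 for neither and 1.16 for strictly empty stretches. Expressed as a share of each file, only H3K4-only stretches stayed above input, at 1.41, and H3K36-only stretches stood at -3.25. Scaled by the stretches of lowest Pol III coverage, the values were 6.74 and 2.08. Each scaling moves all classes by the same amount, so it cannot change their order.

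The 8 H3K4-only stretches with the highest H3K4-titled coverage were chosen by rule. The leader, between genes on chromosome 6 (chr6:128748702-128749809) and 9469 bp from the start of Klrb1c, a natural killer cell receptor gene, matched no Pol III gene. It had a coverage of 83.1 and 117 in the H3K4-titled libraries and 0.357 and 0.119 in the H3K36-titled libraries. It alone held 7.11% and 6.41% of the H3K4-titled coverage. Its Pol III coverage was 99, 70.4, 116 and 110. A pair of similar unmatched stretches in the same neighbourhood (chr6:128792926-128793580 and chr6:128709861-128711030) had 64.7 and 113, and 66.1 and 84.2, in the H3K4-titled libraries. The 3 are long stretches at 1 locus, so they do not count as separate examples.

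The tRNA-Glu (TTC) gene in the stretch chr14:79881325-79881696 lies within Elf1, a transcription factor gene, and 250 bp from the start of Wbp4, a splicing factor gene. Its stretch had 66.2 and 112 in the H3K4-titled libraries, 0.409 and 0 in the H3K36-titled libraries, and 75.3, 52.8, 97.2 and 105 in the Pol III libraries. Next to each other on chromosome 3, at 1700064H15Rik, tRNA-Tyr (GTA) had 52.6 and 79.0 and tRNA-Arg (ACG) had 48.3 and 66.6. The tRNA-Tyr stretch had more Pol III, 161, 103.6, 203 and 187, than the tRNA-Arg stretch, 55.0, 40.8, 77.9 and 92.3. The list closes with tRNA-Ser (AGA) on chromosome 4, 45.4 and 73.03, and tRNA-Phe (GAA) on chromosome 14, 49.5 and 60.2. At all 8 stretches the H3K36-titled coverage was below 0.6 in both libraries, a line above the H3K36 thresholds of 0.449 and 0.408. The stretch chr6:128792926-128793580 had 0.589 in replicate 1, above that library's threshold, and 0 in replicate 2. No other value among the 8 reached its library's threshold. The class admits only stretches that are not H3K36-high, so the rule itself partly sets these low values. Absence of the mark was not tested.

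Over the tRNA genes themselves, mean H3K4-titled coverage was lowest where mean Pol III coverage was highest. Of the H3K4-only stretches, 85 held a predicted tRNA gene alone with flanks of 150 bp. In the H3K4-titled libraries the mean coverage was 23.4 and 36.3 upstream, 8.33 and 12.9 over the gene, and 14.8 and 21.8 downstream. Upstream coverage was 2.81 times that over the gene in both libraries, and was above it at 69 and 71 of the 85 stretches. Downstream coverage was above it at 53 and 52. Pol III was highest over the gene: RPC1 had 149 and 108 there against 107 and 76.8 upstream, and RPC4 had 211 and 216 against 103 and 93.3. Downstream RPC1 had 56.1 and 38.0, so it leaned upstream as the H3K4-titled libraries did, and RPC4 had 102 and 129. The H3K36-titled libraries had 0.283 and 0.246 upstream and 0.275 and 0.172 over the gene, with upstream above gene at 31 and 25 of 85 stretches. Input had 1.44 and 1.13 upstream and 1.24 and 0.873 over the gene.

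**Figure D3:**
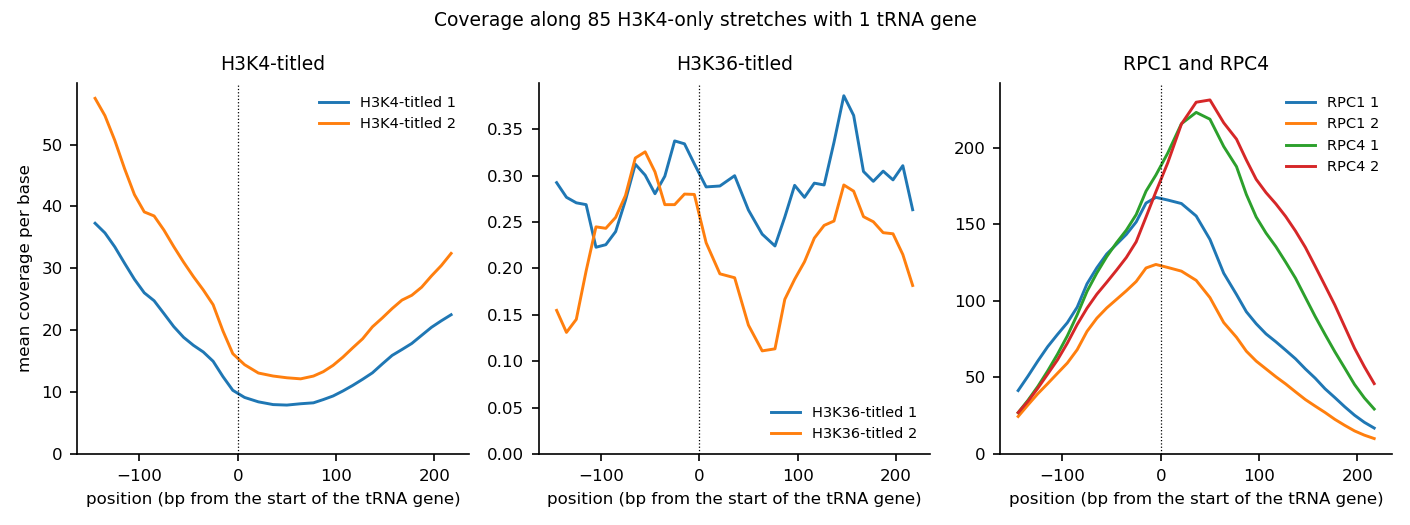
Mean coverage per base along 85 H3K4-only stretches with a tRNA gene alone, by position from the start of the gene (bp, transcribed strand, gene length scaled), in the H3K4-titled (left), H3K36-titled (middle) and Pol III (right) libraries, 1 line a library. H3K4-titled coverage dips over the gene where Pol III is high; the vertical scales differ between panels.

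The H3K4-only class took unequal parts of the tRNA families. It held 9 of 22 tRNA-Arg, 6 of 15 tRNA-Asp, 6 of 15 tRNA-Pro and 8 of 24 tRNA-Leu stretches, but 4 of 57 tRNA-Cys, 3 of 28 tRNA-Ala and 5 of 25 tRNA-Lys stretches, against 99 of 380 over all tRNA stretches. Median Pol III coverage was 74.97 over the tRNA-Arg stretches, 16.4 over tRNA-Lys, 1.09 over tRNA-Cys and 0.582 over tRNA-Ala. H3K36-only were 6 of 24 tRNA-Gly stretches, against 20 of 380 tRNA stretches over all, but 3 of the 6 are copies with identical genes and the other 3 belong to the chromosome 1 cluster near Fcgr3, so they are not separate examples. The B box motif GTTCGANNC, sought on the transcribed strand at its place in the T arm, stood in 85 of 114 predicted tRNA genes of H3K4-only stretches (74.6%), 13 of 20 of H3K36-only stretches (65%) and 149 of 261 of the neither class (57.1%), against 250 of 398 in all (62.8%). In the pairs above, both tRNA-Gly genes and the chromosome 11 tRNA-Asp gene hold it, and the Aqr gene does not.

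H3K36-only stretches lay mostly inside protein-coding genes. Of 42, 23 (54.8%) were within such a gene, against 7 of 118 H3K4-only stretches (5.93%) and 115 of all 532 (21.6%), of which 50 are the 5S rRNA genes within a long annotated gene model. They were also poor in CpG, with a median of 1.31 per 100 bp, against 4.42 in H3K4-only stretches and 2.96 over all. A start of a protein-coding gene was within 1 kb of 9.52% of them, against 22.0% of H3K4-only stretches and 10.2% of all. By gene family, 20 were tRNA stretches and 22 matched no Pol III gene, and the latter are 52.4% of the class against 16.5% of all stretches.

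Setting the 5S rRNA genes aside, place in the genome separated the titles. Of 54 stretches with a protein-coding start within 1 kb, 29 (53.7%) were H3K4-high and 7 (12.96%) H3K36-high. Of 38 stretches within a gene and more than 5 kb from any start, 0 were H3K4-high and 18 (47.4%) were H3K36-high. Those 18 lay in 17 genes or gene pairs. Of 335 stretches between genes and more than 5 kb from a start, 76 (22.7%) were H3K4-high and 16 (4.78%) H3K36-high. H3K4-high stretches were thus not limited to starts of protein-coding genes.

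**Figure D4:**
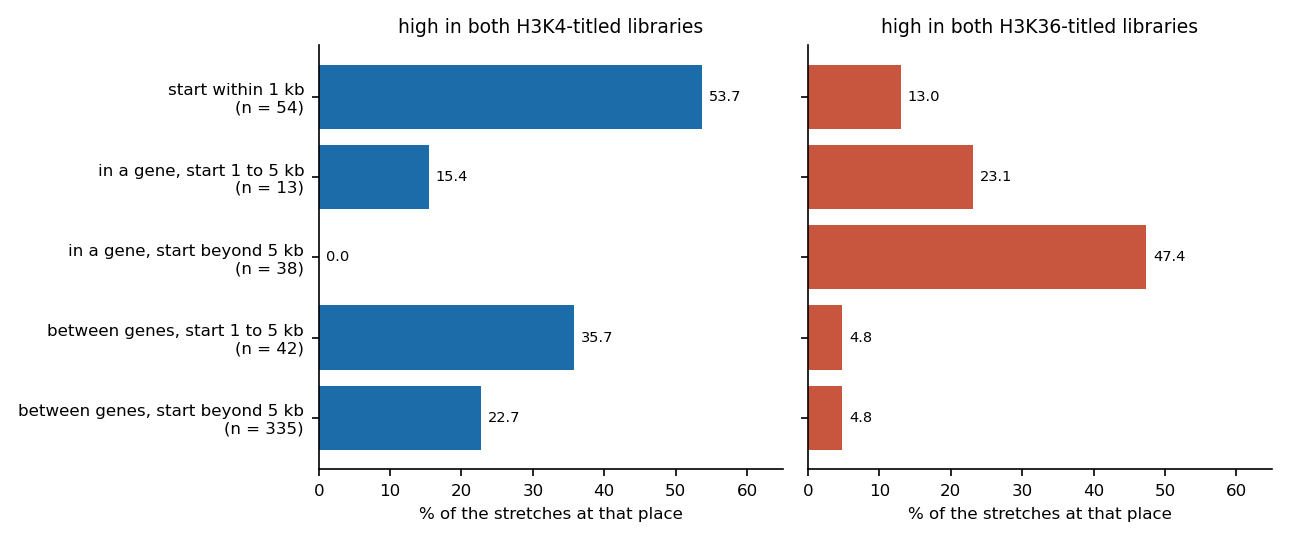
Percent of stretches that were high in both H3K4-titled libraries (left) or in both H3K36-titled libraries (right), by place relative to annotated protein-coding genes, without the 5S rRNA genes; n is the number of stretches at each place. The H3K4 share is highest within 1 kb of a start (53.7%) and the H3K36 share inside genes beyond 5 kb (47.4%).

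At the 4 places that held H3K4-high stretches, their Pol III medians were above those of the other stretches in all 4 Pol III libraries. Between genes and beyond 5 kb from a start, the 76 H3K4-high stretches had Pol III medians of 84.0, 59.9, 112 and 116 and the other 259 had 2.32, 1.79, 3.42 and 3.55. Within 1 kb of a start the gap was smaller, with 78.1, 59.1, 108 and 116 at 29 H3K4-high and 36.1, 29.6, 59.1 and 51.9 at 25 other stretches. Between genes at 1 to 5 kb the medians were 124, 88.7, 156 and 156 at 15 H3K4-high and 30.1, 25.3, 43.8 and 49.6 at 27 other stretches, and inside genes at 1 to 5 kb only 2 stretches were H3K4-high. Inside genes beyond 5 kb, Pol III was low with and without H3K36. The 18 H3K36-high stretches there had medians of 3.05, 2.18, 4.03 and 4.12 and the 20 others had 2.30, 0.839, 1.85 and 1.89, with input medians of 1.36 and 1.17 against 1.06 and 0.921. A mean Pol III coverage above 10 was reached by 2 of the 18 and 2 of the 20.

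The strongest H3K36-only stretches lay inside protein-coding genes, as did all 8 chosen by the rule. The leader lay in an untranslated part of an exon of Pisd (chr5:33079447-33079855), the gene of mitochondrial phosphatidylserine decarboxylase. It had 41.5 and 32.3 in the H3K36-titled libraries, 2.02 and 3.34 in the H3K4-titled libraries, and held 12.8% and 13.6% of all H3K36-titled coverage. Its input was also high, 6.17 and 5.68, and its Pol III coverage, 6.68, 4.59, 9.48 and 9.39, was close to it in coverage as deposited.

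The tRNA-Val (AAC) gene in an intron of Ubr4, which encodes a large ubiquitin ligase, had 14.9 and 12.4 in the H3K36-titled libraries and 0.204 and 0.027 in the H3K4-titled libraries. Pol III there was 0.559, 0.629, 1.19 and 1.08, and input 0.613 and 2.08, so the 4 Pol III libraries lay within or below the range of input. Its gene (chr4:138986421-138986492, minus strand) is shown because it is the H3K36-only tRNA gene with the most H3K36-titled coverage. The place in capitals does not hold the exact motif GTTCGANNC. Neither does that of the strictly empty tRNA-Cys (GCA) gene on chromosome 11, where Pol III was 54.7, 33.02, 89.9 and 110.

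tRNA-Val (AAC), Ubr4: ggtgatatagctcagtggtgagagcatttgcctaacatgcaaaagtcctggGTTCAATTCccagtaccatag

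Other stretches of this group matched no Pol III gene. An exon of Cdkn2aipnl had 18.2 and 9.90 in the H3K36-titled libraries, with Pol III at 1.65, 0.890, 1.34 and 2.85. An intron of Dhx9, which encodes an RNA helicase, had 17.6 and 8.59, with Pol III at 1.43, 1.36, 0.737 and 0.359. Introns of Rps6kc1, Dhdh and 4921513D23Rik had 12.3 and 10.7, 7.28 and 6.90, and 4.40 and 3.20. Mean Pol III as deposited was above mean input there, at 6.50, 6.55 and 8.72 against 4.19, 1.11 and 1.31. At Rps6kc1 the libraries overlapped, with 5.04 in RPC1 replicate 1 and 5.71 and 2.68 in input. In Aqr the tRNA-Asp (GTC) stretch had 5.34 and 4.29, no more than 0.613 in an H3K4-titled library, and Pol III of 0.613, 0.204, 0.852 and 0.145. The chromosome 11 tRNA-Asp stretch, which also holds a tRNA-Gly (TCC) gene, had Pol III of 139, 95.3, 207 and 247, H3K4-titled coverage of 8.55 and 11.0 and H3K36-titled coverage of 0.228 and 0.114.

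Not all of the H3K36-only class stood out from input. Of the 42 stretches, 24 took a larger share of both H3K36-titled libraries than of both input libraries. Of these 18 lay within genes, and their median of the mean Pol III coverage was 1.71. The other 18 stretches had input medians of 4.25 and 3.91, against 1.02 and 1.02 over all stretches, and a median Pol III of 7.18. Fractional coverage, as where reads are divided among like sequences, was measured in the 4 Pol III libraries only. The highest of their shares of covered bases was taken. Coverage was mostly fractional by this measure at 10 of these 18 and at 6 of the 24. Among them were tRNA-Gly (GCC) and tRNA-Leu (CAG) copies of the chromosome 1 cluster near Fcgr3, a gene of an antibody receptor. How far shared reads set these values was not tested.

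The tRNA-Gly (GCC) gene printed above occurred 8 times with identical letters, 3 times in H3K4-only, 3 times in H3K36-only and 2 times in neither stretches. Mean Pol III coverage was 45.4 to 141 at the H3K4-only copies, 57.6 and 127 at the neither copies and 1.18 to 2.14 at the H3K36-only copies. Each H3K36-only copy lay in an intron, 1 in Trim2 and 2 in Vac14, the gene of a scaffold of a phosphoinositide kinase complex, while the other 5 lay between genes. The chromosome 1 copy had 12.2 and 19.7 in the H3K4-titled libraries, 0.205 and 0 in the H3K36-titled libraries, and 113, 78.4, 182 and 192 in the Pol III libraries. The Trim2 copy had 1.47 and 2.98, 0.760 and 0.714, and 1.499, 1.71, 3.14 and 2.22. Its H3K36-only class thus rests on rank within each library and on few reads, little above the minimum of 3 read equivalents. H3K4-titled coverage of the Trim2 copy was under the H3K4 threshold but above the library medians of 0.911 and 1.45. As a share of each file the log2 difference, H3K4-titled minus H3K36-titled, was -1.34 at the Trim2 copy (SE 0.19, limma's adjusted p = 0.0152). At the chromosome 1 copy it was 2.07 (SE 0.33, limma's adjusted p = 0.0190). At the Vac14 copies the H3K36-titled libraries had 2.05 and 1.64, and 1.84 and 1.19, and the H3K4-titled libraries at most 0.205. In the Pol III libraries no fractional coverage occurred at the chromosome 1 and Trim2 copies. At the Vac14 copies up to 35.5% and 60% of covered bases were fractional there. The histone libraries were not examined for it. Of the 20 tRNA genes of H3K36-only stretches 6 had an identical gene in an H3K4-only stretch.

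**Figure D5:**
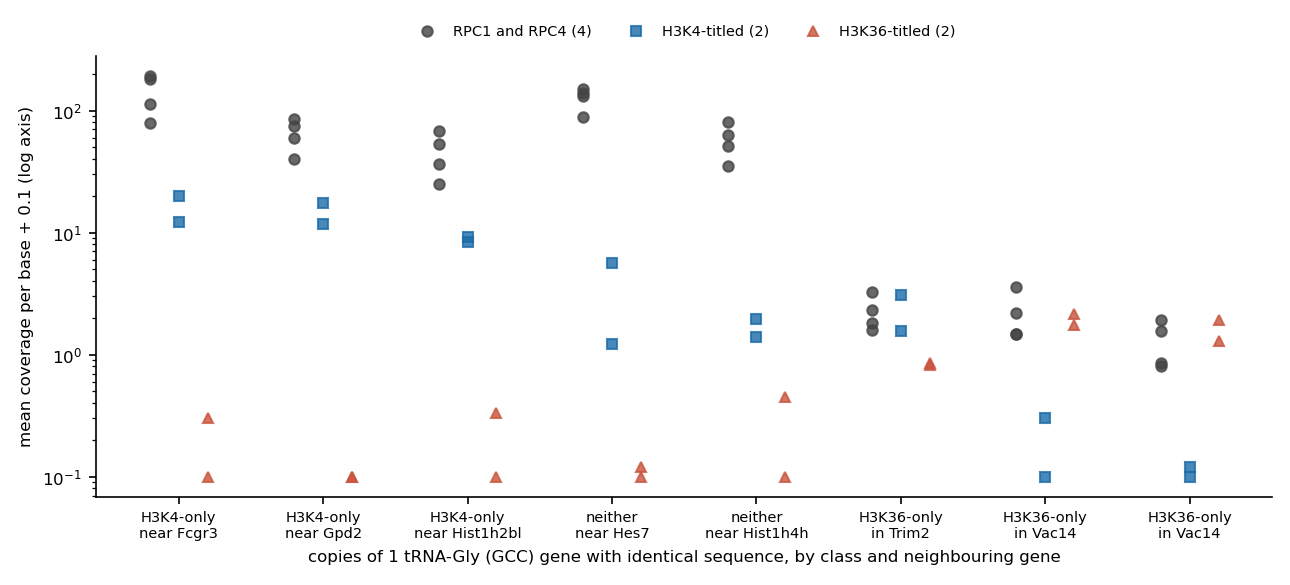
Mean coverage per base plus 0.1 (log axis) of the 8 stretches with an identical tRNA-Gly (GCC) gene, by class and by host or nearest gene, with 1 point for each of 4 Pol III, 2 H3K4-titled and 2 H3K36-titled libraries. Pol III is above 25 in every library at the 5 copies between genes and below 4 at the 3 intronic copies.

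All 4 double stretches were rich in CpG, with 5.67 to 9.97 per 100 bp against a median of 2.96 over all, and 3 were tRNA stretches within 373 bp of the start of a protein-coding gene. They were also mostly fractional in 3 of 4 cases and 2 are neighbours at Fcgr3, so they are few separate examples. The tRNA-Tyr (GTA) stretch on chromosome 5, 373 bp from the start of Agbl5, had 8.81 and 12.0 in the H3K4-titled libraries and 0.889 and 0.781, or 4.55 and 4.00 read equivalents, in the H3K36-titled libraries. It was strongly occupied by Pol III, with 164, 112, 212 and 237, and free of fractional coverage in the Pol III libraries. The tRNA-Gly (TCC) stretch at Fcgr3 had 24.1 and 28.4 against 2.14 and 1.15, and the neighbouring tRNA-Asp (GTC) stretch 7.74 and 9.55 against 1.21 and 0.779. Both had fractional coverage over most covered bases of a Pol III library (60.5% and 77.7%) and input at 3.44 to 3.91. The last, an unmatched stretch on chromosome 8 (chr8:19784551-19785003), had the highest H3K4-titled coverage of all, 212 and 489, with RPB2 at 146 and 192 and Pol III at only 4.78, 5.91, 10.3 and 7.35, close to its input of 5.93 and 3.96. Its H3K36-titled coverage was 0.554 and 0.506, or 3.30 and 3.02 read equivalents, just over the minimum of 3. It held 0.188% and 0.237% of the H3K36-titled coverage, but 0.992% and 0.701% of the input coverage.

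Some strictly empty stretches carried much Pol III, though a smaller share of them did than of all stretches. The U6atac gene on chromosome 2, whose RNA works in the minor spliceosome, had Pol III at 97.4, 75.3, 174 and 198 with H3K4-titled coverage of 0.535 and 0.164 and H3K36-titled coverage of 0.178 and 0. Next came tRNA-Cys (GCA) on chromosome 6, with 68.9, 45.1, 98.5 and 131, and tRNA-Cys (GCA) on chromosome 11, with 54.7, 33.02, 89.9 and 110; at the latter H3K4-titled coverage was 0.101 and 0 and no H3K36-titled coverage was listed. A tRNA-Ser (GCT) gene on chromosome 13 and a tRNA-Lys (TTT) gene on chromosome 19 had mean Pol III coverage of 69.0 and 62.8. At the lower end, tRNA-Ala (AGC) in an intron of Myo5a, tRNA-Gln (TTG) near Cask and tRNA-Ala (TGC) near Tceal3 had means of 0.079, 0.156 and 0.165. Of the 85 strictly empty stretches 8 (9.41%) had a mean Pol III coverage above 50 and 19 (22.4%) above 10. Over all 532 stretches the shares were 30.1% and 53.6%.

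Genes whose Pol III promoters lie outside the transcribed part (type 3 genes) were found in the H3K4-only and neither classes. Of 11, 4 were H3K4-only, against 118 of 532 (22.2%) over all: 3 of 5 U6 genes, of which 2 are neighbours on chromosome 12, and the RNase P RNA gene beside Parp2. The RNase P RNA gene had 19.1 and 23.4 in the H3K4-titled libraries but Pol III of only 8.03, 7.99, 15.2 and 11.8. By contrast the gene of 7SK RNA, an inhibitor of the P-TEFb kinase, had 0.202 and 0.212 in the H3K4-titled libraries, 0.348 and 0.120 in the H3K36-titled libraries and Pol III of 77.3, 66.6, 105 and 110. The RNase MRP RNA gene had 1.53 and 2.91 with Pol III of 92.5, 59.8, 118 and 100, and the Y RNA genes had at most 0.709 in an H3K4-titled library with mean Pol III of 58.8 and 34.8. Both 7SL genes, by Rps29 and Nemf, were under the H3K4 threshold, the first in replicate 2 only, with 5.65 and 6.50, and the second in both, with 4.01 and 4.89, and mean Pol III of 95.3 and 125. All 50 5S rRNA stretches were neither, with medians of 1.92 and 2.96 in the H3K4-titled and 0.332 and 0.220 in the H3K36-titled libraries; these repeats share their reads.

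RPB2 was higher at both kinds of marked stretch than at the neither class. Its medians were 5.06 and 5.10 at H3K4-only, 3.33 and 2.70 at H3K36-only and 1.26 and 1.19 at neither stretches. On the log2 scale H3K36-only stretches exceeded the neither class by 1.41 and 1.19, while input exceeded it by 0.64 and 0.49. The RPB2 medians were lower, 2.12 and 1.53, at the 24 H3K36-only stretches above both input shares than at the other 18, 4.47 and 4.91, whose input was also high. RPB2 ranks correlated with those of the H3K4-titled libraries at rho of 0.72 to 0.77 and with those of the H3K36-titled libraries at 0.06 to 0.20. With the ranks of the Pol III libraries, RPB2 had rho of 0.77 to 0.80 and the H3K4-titled libraries had 0.80 to 0.82.

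Stretch by stretch, the titles were compared on shares of each file with limma and Benjamini-Hochberg adjustment. Of 478 stretches tested, 94 (19.7%) took a larger share of the H3K4-titled libraries and 109 (22.8%) of the H3K36-titled libraries. In simulated data 30.7% of such calls were false at a 4-fold change and 16.3% at a 16-fold change, so some of these may be false. The classes were cut from the same values, so their counts only describe them: 79 of 118 H3K4-only stretches were called higher in the H3K4-titled libraries, 40 of 42 H3K36-only stretches higher in the H3K36-titled libraries, and of 314 neither stretches tested 14 and 69. The largest differences toward H3K4 were the chromosome 8 double stretch (log2 difference 4.89, SE 0.24), the tRNA-Glu (TTC) stretch at Elf1 (4.06, SE 0.51) and the 3 stretches by Klrb1c and Klrb1b (3.98, 3.89 and 3.79). Toward H3K36 they were Pisd (-6.45, SE 0.09), Ubr4 (-5.79, SE 0.16), Cdkn2aipnl (-5.78), Dhx9 (-5.66) and Rps6kc1 (-5.19). limma's adjusted p was between 4.53e-04 and 0.0196 for these 10. A difference here is one of share: the median over all stretches tested was -0.38 with file totals, but 2.39 when scaled by the stretches of lowest Pol III coverage, where 316 stretches were higher in the H3K4-titled and 15 in the H3K36-titled libraries, and 2.04 for coverage as deposited, with 267 and 22. With either H3K4-titled library left out no stretch passed limma's adjusted threshold in either direction, while at an unadjusted p under 0.05 limma had 61 higher in the H3K4-titled and 48 in the H3K36-titled libraries without replicate 1, and 60 and 55 without replicate 2.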

How the data were processed

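The authors' deposited files hold per-base coverage, a signal whose values show no scaling for depth, over listed stretches of the mm9 build, which the submitters' processing notes name. Not given in the sources used here: aligner, filters, read weights. Abutting lines were joined into 532 stretches shared by all 12 files; a stretch on X listed in 5 files was left out. Starts were read as 1-based, since 356 of 398 predicted tRNA genes then lay 150 bp from both ends. tRNA genes were predicted by a cloverleaf search of the NCBIM37 (mm9) reference; other genes are from GENCODE vM1, and RNase P and 7SL RNA genes were named by their neighbours.

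Groups follow titles. Shares of file were compared with limma 3.58.1 in R 4.3.3 on log2(scaled coverage + 1.503), the value of 1 read in the shallowest library, over the 4 histone libraries with trend; stretches under the 0.1 quantile were left out and the threshold was an adjusted p of 0.05. Tests were two-sided. The same code was tested on simulated data, where stretches of few reads gave false calls. At a 4-fold change 27 of 88 calls (30.7%) were false, and at 2-fold 0 of 177 changed stretches tested were recovered. A minimum of 1 expected read, with 7.81% of calls false at 4-fold, was therefore added as an alternative. Classes are descriptions; their Pol III medians were compared with input by an exact permutation test over libraries. Named stretches are those with the highest coverage for their title in each class, all double stretches, strictly empty stretches at the ends of the Pol III range, the 5 largest limma differences each way, and all type 3 and 7SL genes. Members and lists were chosen with earlier results of these data known. The labels call the second collection time, with its own mice, the biological replicate but tie no library to a time, so p-values measure only the spread between these libraries. Alternatives covered scaling, pseudocount, filters, percentiles, merged regions (under 1000 bp apart), fractional coverage and leaving out libraries.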

Additional observations from a re-analysis of the deposited data

How the results depend on the processing

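Depth limits the H3K36 side most: at a median of about 1 read a stretch, a library can miss a marked stretch by chance of counting. Labels do not tie replicate numbers to times, and same-numbered H3K4-titled and H3K36-titled libraries deviated with a correlation of 0.09, which at this depth cannot show whether they were paired; over all pairs of groups it ran from -0.34 to 0.18. The numbers are therefore taken only as names. With the replicate block, limma called 96 stretches higher in the H3K4-titled and 87 in the H3K36-titled libraries, against 94 and 109 without it, and in a fit of all 12 libraries with the replicate block 129 and 165, against 128 and 163 without it.

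Direction toward a title and the count of calls followed the scaling. The background-anchored scaling gave 316 stretches higher in the H3K4-titled and 15 in the H3K36-titled libraries, and coverage as deposited gave 267 and 22. Over merged regions the counts were 69 and 100 of 397. Without stretches of mostly fractional coverage, added after the data were seen, the second count was 65; with at least 1 read expected in the shallowest library, added likewise, the counts were 85 and 73 of 277. Leaving out 1 histone library at a time gave 0 to 137 and 0 to 248. All 10 named differences kept their sign under every setting that could be fitted, and lost limma's adjusted threshold where an H3K4-titled library was left out; the tRNA-Glu (TTC) stretch at Elf1 and the stretch by Klrb1b lost it also with a pseudocount at the 5th percentile of nonzero values (adjusted p = 0.0815 and 0.106). A lone library is assumed there to vary like the other pair.

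The classes moved with their rule. H3K4-only held 49 stretches at the 90th percentile. H3K36-only held 68 by the mean of 2 libraries, 24 above both input shares, 26 without mostly fractional stretches and 5S genes, and 25 with at least 5 read equivalents (added after the data were seen). In the same order double held 15, 0, 1 and 1, and the share of H3K4-high stretches that were H3K36-high was 11.3%, 0%, 1.06% and 0.820%; at the 67th and 90th percentile double held 10 and 1. Leaving out 1 library at a time gave 103 to 128 H3K4-only, 41 to 90 H3K36-only, 4 to 19 double and 320 to 368 neither stretches, and a share of 3.28% to 15.6%.

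The log2 Pol III difference of H3K4-only over H3K36-only was 4.29 at the 90th percentile, 4.37 by the mean of 2 libraries, 5.72 above both input shares, 4.43 over regions and 4.53 without fractional stretches and 5S genes, and 4.06 to 4.27 leaving out 1 library. H3K4-only over neither was 4.56 and 3.49 at the 67th and 90th percentile, 3.66 above both input shares and 4.61 over regions, and 3.75 to 4.16 leaving out 1 library. H3K36-only over neither was 0.54 and -0.80 at these percentiles, -2.06 above both input shares, 0.18 over regions and -0.66 without fractional stretches and 5S genes, and -0.52 to 0.0845 leaving out 1 library.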
